A study of Mus musculus with 16 samples.

Results

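Prenatal stress (PS) was compared with undisturbed gestation (CTRL) in the amygdala of male offspring, using 4 PS male libraries (LM25 to LM28) and 4 CTRL male libraries (LM17 to LM20), which are 8 of the 16 libraries of the study. The description covers the 14309 of 17293 genes in the table that had a mean above 0.5 CPM, the read count scaled to a common library total, in PS males or CTRL males, and it follows gene families and pathways other than ion channels and receptors. All mice were C57BL/6, and the tissue was dissected at postnatal day 28 (PN28). PS males were born to dams that had been exposed to changing psychosocial stressors through much of pregnancy, such as soiled rat bedding, cage tilt, wet bedding and lights left on overnight. CTRL males were born to dams that had been left alone, and the 4 mice of a group came from different litters. Cross-fostered mice formed separate groups in the paper and were not sequenced. Stress during gestation and rearing by a stressed dam therefore cannot be told apart in this comparison. The other 8 libraries are the females of both kinds of litter, 4 PS and 4 CTRL, which enter the shared fit and the test of the sex difference. The samples are whole dissections, so fewer cells of a type and less RNA per cell cannot be told apart.

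The amygdala joins a cortex-like part, the basolateral nuclei with excitatory projection neurons, to striatum-like parts, the central and medial nuclei and the intercalated cells, which are mostly GABAergic. Its circuits assign threat and reward value to stimuli and drive autonomic and hormonal responses. Stress hormones of a pregnant dam can reach the fetus, where the glucocorticoid receptor acts as a transcription factor in neurons and glia. Wiring of these circuits continues into the juvenile weeks and depends on adhesion proteins, guidance cues and the kinases that act downstream of synaptic receptors.

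Values are CPM of the deposited, corrected values. Values per library are given in the order LM25, LM26, LM27 and LM28 for PS males and LM17, LM18, LM19 and LM20 for CTRL males. Fold changes are log2 values of PS males over CTRL males with their standard errors (SE), from CPM scaled by TMM factors with 0.5 CPM added, and p-values are from limma with Benjamini-Hochberg adjustment over all 14309 genes. A gene counts as called when its adjusted p is under 0.05 and as a differentially expressed gene (DEG) when its fold change is also over 1.5. The deposited values of the 16 libraries sum to between 39989993 and 44275406, and with corrected values and 4 libraries a group the precision is that of the spread between libraries.

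The PS male libraries LM25 and LM28 stood apart from the other 6 male libraries. Summed over the 19 hippocampal marker genes in the table, LM25 had 4332 CPM and LM28 had 4183 CPM, while LM26 and LM27 had 2123 and 2012 CPM and CTRL males had 1572 to 2523 CPM. These 2 libraries also lay farthest from CTRL males for most called genes. Of the 122 DEGs that were lower in PS males, the lowest library was LM28 for 62, LM25 for 56, and LM26 or LM27 for 2 each. All 23 higher DEGs had their highest value in LM28 (12 genes) or LM25 (11 genes). LM26 and LM27 moved the same way by less. The median log2 difference from the CTRL mean over the lower DEGs was -0.98 in LM25, -0.65 in LM26, -0.66 in LM27 and -1.03 in LM28.

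More genes were lower than higher in PS males. Limma called 492 of 14309 genes (3.44%), 126 of them higher (0.881%) and 366 lower (2.56%). Among these, 23 genes were DEGs in the higher direction (0.161%) and 122 in the lower direction (0.853%). This split depended on the scaling, and the TMM factors of PS males (1.01 to 1.05) lay above those of CTRL males (0.974 to 1.004). With CPM not scaled further, 280 genes were called higher and 253 lower, the DEGs numbered 54 higher and 101 lower, and the median fold change of all genes was 0.064, against 0.0073 with scaling. The libraries of PS and CTRL males did not overlap for 479 of the 492 called genes, where this held for 22.2% of all genes tested. Calls and overlap come from the same values, so this count only describes the called genes. Without LM25 and LM28, in a fit with 0 factors in the model, against 2 with all libraries, limma called 0 genes, with 2625 genes at an unadjusted p under 0.05. All 492 genes called with these libraries kept their direction without them and had an unadjusted p under 0.05 (limma). These genes were chosen in a fit that already held LM26, LM27 and the same CTRL libraries, so this describes them and tests nothing. With 1 library left out at a time the number of DEGs, 145 with all libraries, was higher without LM17 (91 higher and 230 lower), LM26 (81 higher and 181 lower) or LM27 (91 higher and 186 lower). It was lower without LM18 (2 higher and 25 lower), LM19 (3 higher and 34 lower), LM20 (5 higher and 21 lower), LM25 (2 higher and 24 lower) or LM28 (17 higher and 71 lower). The median fold change of the lower DEGs without LM25 and LM28 was -0.64, against -0.83 with all libraries, and that of the higher DEGs was 0.61, against 0.78.

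**Figure D1:**
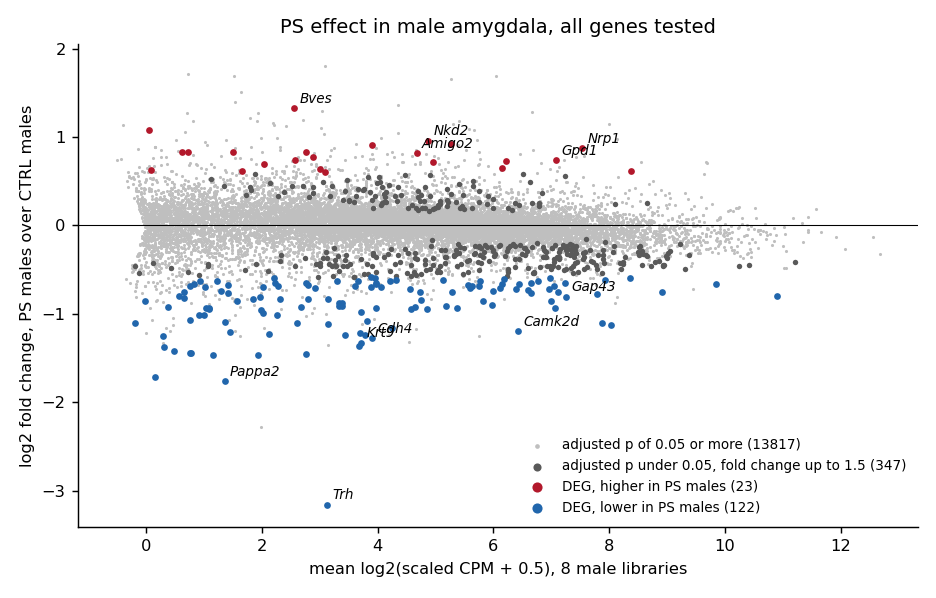
Log2 fold change of PS males over CTRL males (vertical axis) against the mean log2 of scaled CPM over the 8 male libraries (horizontal axis) for every gene tested, each point a gene. The 122 DEGs that were lower (blue) outnumber the 23 that were higher (red), and Trh lies lowest at -3.16.

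Genes with the largest increases in PS males came from several classes. Bves, whose product sits in the plasma membrane and binds cAMP, had 6.51, 8.06, 8.25 and 15.4 CPM in PS males, against 3.40, 3.92, 3.31 and 2.27 CPM in CTRL males. LM28 held the highest value, and the fold change was 1.33 ± 0.31 (SE, adjusted p = 0.0437, limma) with all libraries and 1.17 without LM25 and LM28. Nkd2, an inhibitor of Wnt signalling that binds Dishevelled, had 44.5, 38.1, 31.9 and 56.4 CPM in PS males, against 21.5, 19.2, 17.9 and 23.3 CPM in CTRL males, a fold change of 0.96 ± 0.20 (SE, adjusted p = 0.0385, limma). Its lowest PS library was above its highest CTRL library. Such separation, with a mean above 1 CPM in the higher group, was a condition for naming the largest DEGs in either direction. Akain1, which encodes a protein that binds protein kinase A, had 67.0, 50.8, 43.7 and 58.6 CPM in PS males, against 33.1, 21.9, 27.9 and 27.7 CPM in CTRL males, a fold change of 0.92 ± 0.20 (SE, adjusted p = 0.0399, limma). Amigo2 encodes a leucine-rich repeat adhesion protein that is abundant in CA2 and CA3 of the hippocampus, and it had 40.7, 34.2, 28.9 and 35.1 CPM in PS males, against 19.1, 18.2, 18.99 and 18.0 CPM in CTRL males. Its fold change was 0.82 ± 0.14 (SE, adjusted p = 0.0248, limma), and it was 0.67 without LM25 and LM28. The neuroendocrine transcription factor gene Nhlh2 was scarce, with 1.92, 1.83, 1.53 and 1.18 CPM in PS males, against 0.633, 0.649, 0.786 and 0.526 CPM in CTRL males. Its fold change was 0.83 ± 0.16 (SE, adjusted p = 0.0322, limma), and it was 0.87 without LM25 and LM28. The other genes include Cpne9 (1.08, adjusted p = 0.0320, limma), a copine that binds membranes in the presence of calcium, and Icosl (0.91, adjusted p = 0.0449, limma), the ligand of a T cell costimulator. Nrp1 (0.87, adjusted p = 0.0394, limma), the co-receptor of semaphorins and VEGF, and Lgr5 (0.83, adjusted p = 0.0456, limma), a receptor of R-spondins, were also higher. So were Prss35 (0.83, adjusted p = 0.0437, limma), a serine protease-like gene, Ccdc162 (0.83, adjusted p = 0.0437, limma) and the long non-coding RNA A930024E05Rik (0.78, adjusted p = 0.0355, limma). Exons of A930024E05Rik, Ccdc162, Amigo2 and Cpne9 overlap exons of Kdm2b, Gm17196, Pced1b and Gm43935 on the other strand, and without a stated strand setting some reads could belong to either gene.

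The largest decreases included genes near the limit of detection. Trh, which encodes thyrotropin-releasing hormone and lies on chromosome 6 from 92242061 to 92244650 (GRCm38), had 1.77, 8.44, 3.73 and 0.458 CPM in PS males, against 10.003, 46.5, 19.4 and 45.6 CPM in CTRL males. The CTRL libraries themselves spanned a wide range, with LM17 close to the highest PS library, LM26, and the fold change was -3.16 ± 0.70 (SE, adjusted p = 0.0436, limma) with all libraries and -2.14 without LM25 and LM28. Lnp1 lies on chromosome 16 from 56914344 to 56928061. It had 0.197, 0.445, 0.5001 and 0.362 CPM in PS males, against 1.22, 2.12, 1.86 and 2.06 CPM in CTRL males, and a fold change of -1.43 ± 0.17 (SE, adjusted p = 0.0106, limma). Pappa2, a protease that cuts binding proteins of insulin-like growth factors, had 0.540, 1.21, 1.45 and 0.675 CPM in PS males, against 3.09, 4.98, 3.67 and 5.31 CPM in CTRL males, a fold change of -1.76 ± 0.31 (SE, adjusted p = 0.0248, limma). The R-cadherin gene Cdh4 had 7.74, 11.9, 11.6 and 7.21 CPM in PS males, against 18.1, 24.4, 21.9 and 26.4 CPM in CTRL males, and its fold change of -1.27 ± 0.22 (SE, adjusted p = 0.0248, limma) was -0.98 without LM25 and LM28. Krt9, a keratin of thick skin, had 6.85, 9.13, 7.83 and 8.66 CPM in PS males, against 18.5, 17.8, 18.4 and 27.2 CPM in CTRL males, and its fold change of -1.33 ± 0.23 (SE, adjusted p = 0.0248, limma) was -1.28 without them. Sema3a, a secreted repulsive guidance cue, had 0.516, 1.21, 1.25 and 0.627 CPM in PS males, against 2.06, 2.98, 3.19 and 4.97 CPM in CTRL males. Plcz1, known as the phospholipase C of sperm, had 1.38, 2.67, 2.45 and 1.28 CPM in PS males, against 4.31, 6.78, 5.72 and 6.68 CPM in CTRL males. Their fold changes were -1.47 (adjusted p = 0.0377, limma) and -1.46 (adjusted p = 0.0318, limma). Samd3, BC053393, Ecel1, Vmn1r206 and Trpa1 averaged under 3 CPM in every group of males, with fold changes of -1.71, -1.45, -1.44, -1.37 and -1.25, and for genes this scarce the size depends on the 0.5 CPM added. Lnp1 was also this scarce, and its fold change ran from -2.08 to -1.05 over the alternative settings. Exons of Pappa2 and Plcz1 overlap exons of 1600012P17Rik (same strand) and Capza3 (other strand).

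The promoter of Trh is shown because the gene had the largest change. In the 110 bases before its start (RefSeq, GRCm38.p6, chr6:92244651-92244760, minus strand) the 8 letters TGACCTCA, a variant of the cAMP response element TGACGTCA, are in capitals. TGACCTCA occurred on either strand in 2.11% of 27025 promoters and TGACGTCA in 1.88%, so the match describes the sequence and does not show a bound site.
Trh: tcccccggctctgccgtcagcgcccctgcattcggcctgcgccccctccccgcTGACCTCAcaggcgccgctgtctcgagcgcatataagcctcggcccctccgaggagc

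**Figure D2:**
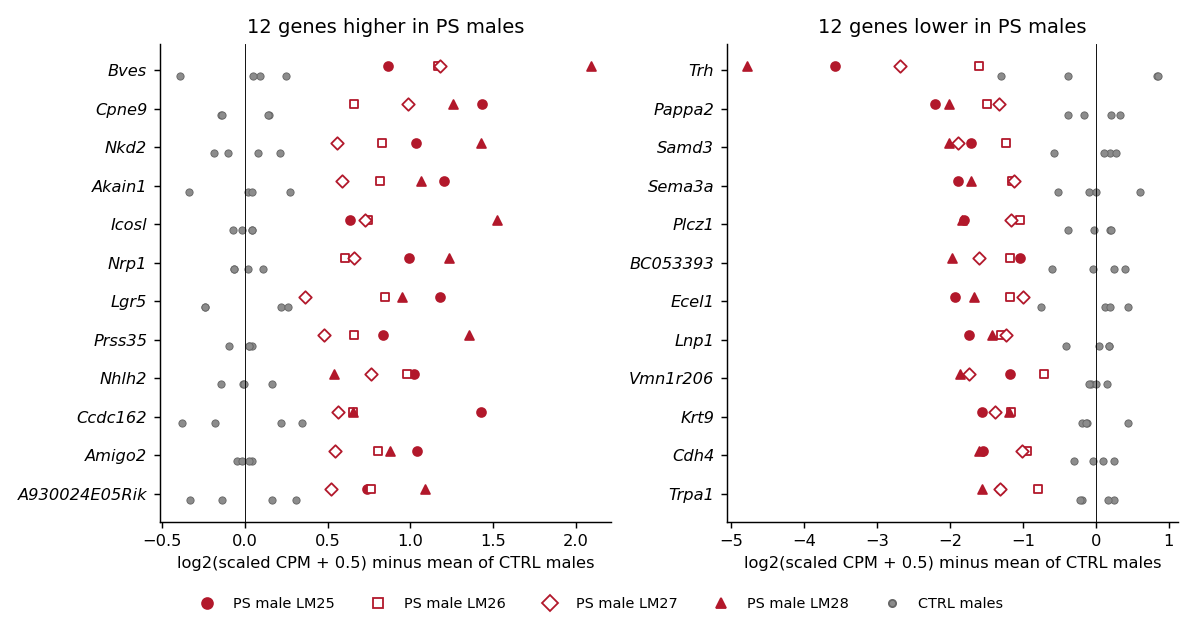
Log2 of scaled CPM plus 0.5 in each library minus the mean of CTRL males (horizontal axis) for the 12 largest DEGs in each direction without overlap and with a mean above 1 CPM in the higher group. Red symbols are the 4 PS male libraries, filled for LM25 and LM28, and grey circles are the 4 CTRL male libraries. All PS libraries lie on 1 side of all CTRL libraries, as the choice of genes required, and LM25 or LM28 lies outermost for most genes.

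The 10 genes with the smallest unadjusted p were all lower in PS males. The last of them in this order, Nrxn2 and Acvr2a, share their adjusted p with other genes, of which Plcb4, Frmd5 and Ifrd1 were higher. Slc7a14, a member of the cationic amino acid transporter family, had 247, 291, 287 and 276 CPM in PS males, against 367, 399.8, 428 and 398 CPM in CTRL males, a fold change of -0.59 ± 0.079 (SE, adjusted p = 0.0106, limma). Lingo2, a leucine-rich repeat protein of neurons, had 30.4, 30.9, 27.9 and 25.7 CPM in PS males, against 41.5, 39.6, 41.3 and 37.4 CPM in CTRL males, a fold change of -0.53 ± 0.071 (SE, adjusted p = 0.0106, limma). Groups were far apart relative to their spread in both genes, with fold changes of -0.53 and -0.51 without LM25 and LM28. The kinase gene Pak6, which acts downstream of Rac and Cdc42, had 71.9, 72.6, 71.9 and 72.5 CPM in PS males, against 101, 94.3, 94.7 and 94.4 CPM in CTRL males, a fold change of -0.47 ± 0.069 (SE, adjusted p = 0.0191, limma). Its 4 PS libraries were nearly equal. Acvr2a, the type II receptor of activins, had 167, 209, 192 and 136 CPM in PS males, against 257, 287, 289.7 and 314 CPM in CTRL males, a fold change of -0.78 ± 0.12 (SE, adjusted p = 0.0226, limma). The others were Ano2, a calcium-activated chloride channel (-1.08, adjusted p = 0.0106, limma), Syt10, a calcium sensor of secretory vesicles (-0.88, adjusted p = 0.0106, limma), and Pdzrn4, a PDZ domain and RING finger protein (-0.88, adjusted p = 0.0117, limma). With them came Lzts1 (-0.84, adjusted p = 0.0222, limma), the neurexin gene Nrxn2 (-0.49, adjusted p = 0.0226, limma) and Lnp1. Exons of Acvr2a overlap those of Orc4 and exons of Nrxn2 overlap those of Slc22a12 on the other strand.

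Gene lists drawn from general knowledge were described by their called members and their median, set against all genes tested, of which 0.881% were called higher and 2.56% lower, 51.8% had a positive fold change and the median was 0.0073. Of the 14309 genes tested, 3676 had an unadjusted p under 0.05 (limma), 1658 of them higher and 2018 lower. Counts of list members at an unadjusted p under 0.05 are to be read against these. Cadherins, neurexin-type synaptic adhesion proteins and immunoglobulin-type adhesion proteins had the largest shares of lower genes among the lists with 30 or more genes tested. Lists of the unfolded protein response and of antioxidant enzymes held 3 higher genes each and no lower ones.

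**Figure D3:**
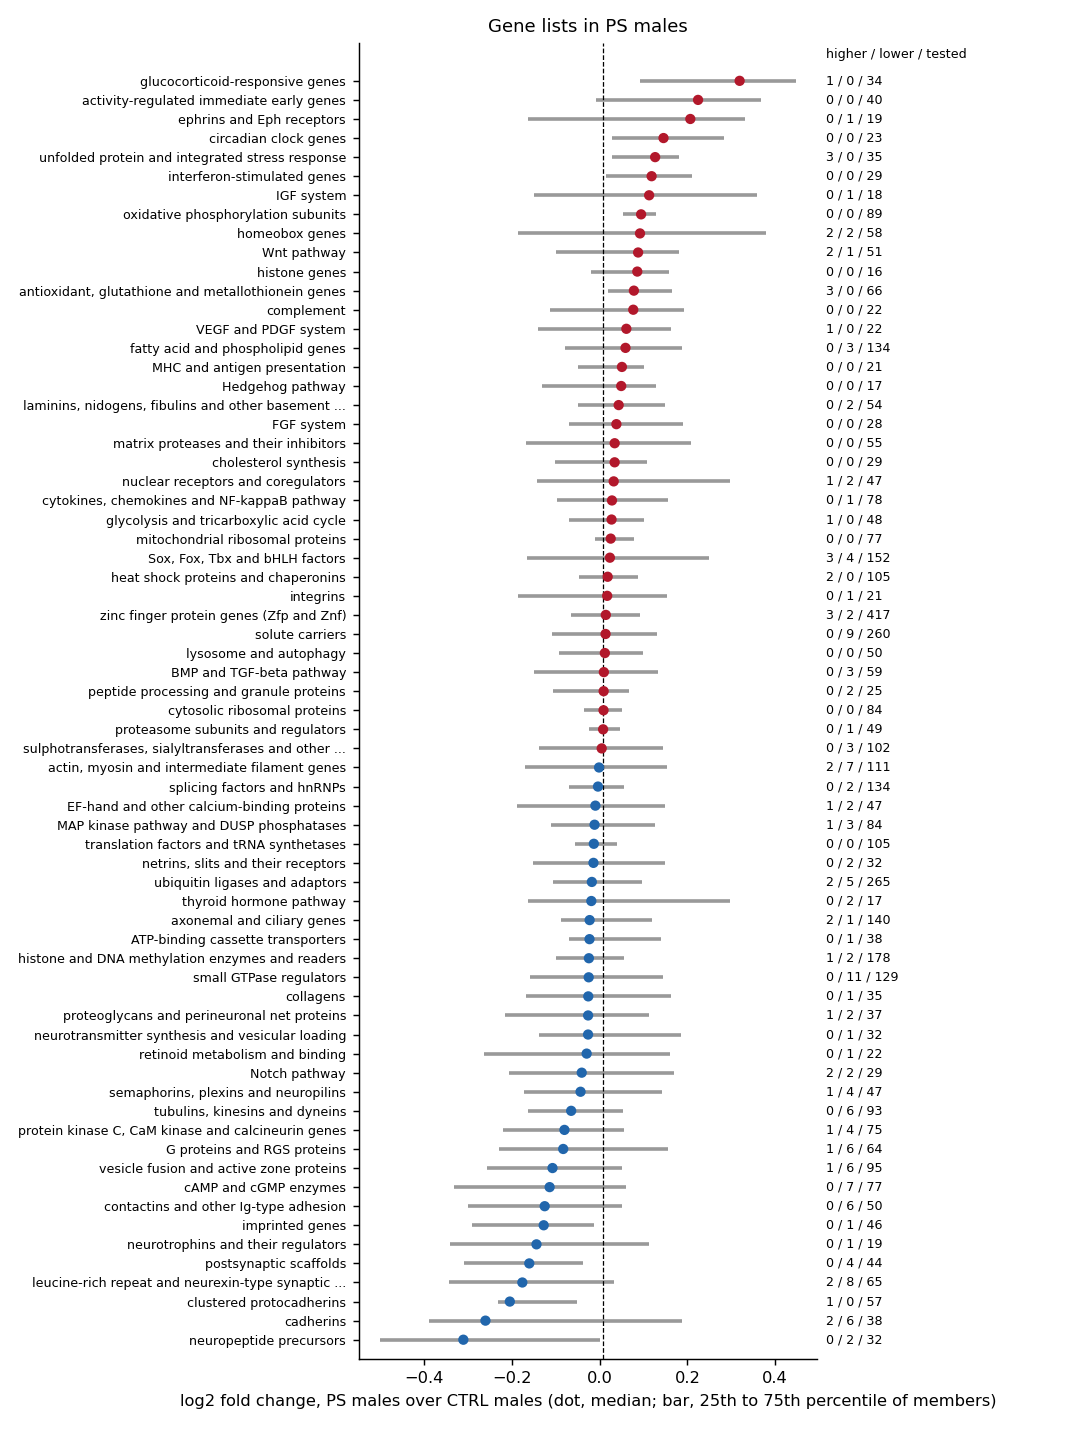
Median log2 fold change of PS males over CTRL males (dots) with the 25th to 75th percentile over members (bars) for the 67 gene lists that are not cell type markers, and at the right the members called higher, called lower and tested; the dashed line is the median of all genes. Medians run from -0.31 for neuropeptide precursors to 0.32 for glucocorticoid-responsive genes, and most lists lie within 0.1 of 0.

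Synaptic adhesion proteins hold the pre- and postsynaptic membranes together and select partners across the cleft. Of 65 listed genes of the neurexin, leucine-rich repeat and latrophilin type, 8 were lower (12.3%) and 2 higher (3.08%), and their median fold change was -0.18 (-0.19 without LM25 and LM28). The leucine-rich repeat gene Amigo2, called higher above, is not on this list. Among the neurexins, the presynaptic organizers, Nrxn2 had 243, 273, 264 and 247 CPM in PS males, against 326, 362, 347 and 351 CPM in CTRL males. Nrxn3 had 194 ± 25.6 CPM on average in PS males, against 260.1 ± 21.98 CPM in CTRL males (SD, n = 4 each), a fold change of -0.49 ± 0.12 (SE, adjusted p = 0.0456, limma). Lrrtm4, a postsynaptic partner of heparan sulphate proteoglycans and neurexins, had 73.0, 68.2, 66.8 and 60.1 CPM in PS males, against 81.8, 79.3, 84.5 and 80.4 CPM in CTRL males, a fold change of -0.34 ± 0.063 (SE, adjusted p = 0.0299, limma). A teneurin and a latrophilin, which bind each other across the synapse, moved in opposite directions. Tenm2 had 503, 361, 383 and 466 CPM in PS males, against 291, 236, 246 and 291 CPM in CTRL males, a fold change of 0.62 ± 0.13 (SE, adjusted p = 0.0389, limma), while Adgrl3 had 85.5, 88.8, 88.7 and 74.6 CPM in PS males, against 111, 114, 111 and 116 CPM in CTRL males, a fold change of -0.48 ± 0.088 (SE, adjusted p = 0.0292, limma). The calsyntenin gene Clstn2 was the other higher gene of the list (0.56 ± 0.11, SE, adjusted p = 0.0318, limma), with 189.7 ± 25.9 CPM on average in PS males, against 123 ± 14.1 CPM in CTRL males. The remaining lower genes were Lingo2, Ptprf (-0.38), Adgrb3 (-0.28) and Elfn1 (-0.57), which were named after their values were seen except for Lingo2. Exons of Adgrl3 and Lrrtm4 overlap those of the predicted genes Gm16054 and Gm4409 on the other strand.

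Cadherins, which join cells through binding of like to like in the presence of calcium, moved both ways. Of 38 cadherins and non-clustered protocadherins, 6 were lower (15.8%) and 2 higher (5.26%), with a median of -0.26 (-0.17 without LM25 and LM28). Cdh13, a cadherin anchored by a lipid, had 88.5, 88.7, 88.1 and 66.7 CPM in PS males, against 115, 124, 133 and 126 CPM in CTRL males. This is a fold change of -0.65 ± 0.11 (SE, adjusted p = 0.0248, limma). Pcdh8, an activity-regulated protocadherin, had 74.3, 102, 103 and 84.1 CPM in PS males, against 108, 144, 145 and 143 CPM in CTRL males, a fold change of -0.63 ± 0.12 (SE, adjusted p = 0.0320, limma). LM17 was the CTRL library with the lowest value for both genes. Cdh11 went the other way, with 136, 107, 113 and 126 CPM in PS males, against 90.8, 80.5, 82.3 and 74.9 CPM in CTRL males, a fold change of 0.49 ± 0.093 (SE, adjusted p = 0.0320, limma). So did Cdh19, a cadherin of the Schwann cell lineage (0.62 ± 0.15, SE, adjusted p = 0.0446, limma), with 3.54 ± 0.327 CPM on average in PS males, against 2.05 ± 0.342 CPM in CTRL males. N-cadherin, Cdh2, had 145 ± 6.91 CPM on average in PS males, against 166 ± 7.54 CPM in CTRL males, a fold change of -0.26 ± 0.059 (SE, adjusted p = 0.0436, limma).

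The clustered protocadherins, whose Pcdha, Pcdhb and Pcdhg genes lie in tandem arrays and give neurons their surface identity, had mostly small negative fold changes that limma did not call. Of 57 tested, 46 had negative fold changes, with a median of -0.20 (-0.19 without LM25 and LM28). All 4 PS libraries were below all 4 CTRL libraries for 36 of the 57 genes and above them for 4, on the scaled CPM, where this held for 12.1% and 10.2% of all genes tested. Limma called 0 of them lower, with 36 lower at an unadjusted p under 0.05, and 1 higher. That gene was Pcdhb3, with 6.14, 5.24, 5.20 and 6.004 CPM in PS males, against 4.57, 3.92, 3.67 and 4.10 CPM in CTRL males, a fold change of 0.38 ± 0.10 (SE, adjusted p = 0.0481, limma). The clustered genes share sequence and, in the Pcdha and Pcdhg arrays, 3' exons. The authors kept only uniquely aligned reads, so reads that align to several members were dropped. How reads of shared exons were assigned is not stated, and the 57 genes are not independent of each other. With CPM not scaled further the median of the list was -0.14.

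Listed adhesion proteins with immunoglobulin domains and their relatives were lower where they were called. Of 50 such genes, 6 were lower and 0 were higher (1 at an unadjusted p under 0.05), with a median of -0.13. Cntnap5a, a contactin-associated protein of the neurexin superfamily, had 18.1, 20.2, 20.8 and 15.0 CPM in PS males, against 32.8, 32.2, 31.98 and 38.7 CPM in CTRL males, a fold change of -0.92 ± 0.16 (SE, adjusted p = 0.0248, limma). Its relative Cntnap5b had 13.03 ± 1.68 CPM on average in PS males, against 20.5 ± 2.06 CPM in CTRL males, a fold change of -0.70 ± 0.16 (SE, adjusted p = 0.0437, limma). Negr1, which guides neurite outgrowth, had 312, 484, 458 and 307 CPM in PS males, against 501, 682, 656 and 639 CPM in CTRL males, a fold change of -0.75 ± 0.16 (SE, adjusted p = 0.0390, limma). It was lowest in LM28 and LM25, and its fold change without them was -0.46. Astn1, a protein of glia-guided migration, had a fold change of -0.41 ± 0.10 (SE, adjusted p = 0.0441, limma).

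Guidance cues had called members in each of their families. Of 47 semaphorin pathway genes, 4 were lower (8.51%) and 1 was higher, with a median of -0.044. The ligand Sema3a and its co-receptor Nrp1 moved in opposite directions, with Nrp1 at 285, 215, 227 and 325 CPM in PS males, against 146, 132, 129.7 and 135 CPM in CTRL males. Plxnc1, the receptor of the lipid-anchored semaphorin Sema7a, had 101, 129.7, 123 and 82.2 CPM in PS males, against 144, 171, 159.9 and 189 CPM in CTRL males, a fold change of -0.68 ± 0.14 (SE, adjusted p = 0.0331, limma). Farp1, an exchange factor for small GTPases that acts with class A plexins, had a fold change of -0.32 ± 0.072 (SE, adjusted p = 0.0436, limma). Among 32 netrin and slit pathway genes, 2 were lower, the netrin receptor gene Unc5d (-0.74 ± 0.18, SE, adjusted p = 0.0444, limma), whose groups overlapped, and Ntn3 (-0.39 ± 0.10, SE, adjusted p = 0.0474, limma), whose exons overlap those of Tbc1d24. Of 19 ephrin and Eph receptor genes, Efnb1 was lower, with 9.36 ± 1.35 CPM on average in PS males, against 12.5 ± 1.41 CPM in CTRL males, a fold change of -0.46 ± 0.10 (SE, adjusted p = 0.0437, limma). The list as a whole had a median of 0.21 (0.064 without LM25 and LM28), with 12 positive fold changes and no higher call (7 at an unadjusted p under 0.05).

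Listed genes of cAMP and cGMP signalling were lower where they were called. Akain1 and Bves, whose products bind protein kinase A and cAMP, were called higher and are not on this list. Protein kinase A is held at synapses by anchoring proteins and is controlled by cAMP through its regulatory subunits. Of 77 listed genes for enzymes, anchors and effectors of cAMP and cGMP, 7 were lower (9.09%) and 0 were higher (6 at an unadjusted p under 0.05), with a median of -0.11. Akap5, the postsynaptic anchor of protein kinase A and calcineurin, had 128, 156, 161 and 128 CPM in PS males, against 187, 199, 215 and 194 CPM in CTRL males, a fold change of -0.54 ± 0.12 (SE, adjusted p = 0.0436, limma). Prkar2b, a regulatory subunit of protein kinase A, had 43.2, 54.3, 52.2 and 33.4 CPM in PS males, against 57.7, 69.0, 74.0 and 67.7 CPM in CTRL males, a fold change of -0.63 ± 0.15 (SE, adjusted p = 0.0441, limma). LM28 was the lowest library for Prkar2b, and without LM25 and LM28 the fold changes were -0.40 for Akap5 and -0.40 for Prkar2b. Prkg2, a cGMP-dependent protein kinase, had 8.52, 9.97, 7.002 and 4.77 CPM in PS males, against 12.8, 11.8, 13.5 and 16.8 CPM in CTRL males, a fold change of -0.91 ± 0.20 (SE, adjusted p = 0.0404, limma), and the anchor Akap6 had 336 ± 17.0 CPM on average in PS males, against 398 ± 12.96 CPM in CTRL males, a fold change of -0.30 ± 0.063 (SE, adjusted p = 0.0366, limma). Pde2a (-0.36), a phosphodiesterase that cGMP activates, Prkar1b (-0.35) and the adenylyl cyclase gene Adcy3 (-0.23) were the other lower members, named after their values were seen.

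Regulators of small and heterotrimeric G proteins showed the same direction of calls. Of 129 genes for regulators of small GTPases, 11 were lower (8.53%) and 0 were higher (9 at an unadjusted p under 0.05), although the median was -0.025. Tiam1, a Rac exchange factor of dendritic spines, had 148, 158, 146 and 149.6 CPM in PS males, against 204, 201, 209 and 219 CPM in CTRL males, a fold change of -0.53 ± 0.10 (SE, adjusted p = 0.0289, limma). Its groups were far apart and the fold change was -0.52 without LM25 and LM28. The small GTPase gene Rhof had 37.1 ± 1.91 CPM on average in PS males, against 44.6 ± 1.35 CPM in CTRL males, a fold change of -0.32 ± 0.058 (SE, adjusted p = 0.0273, limma). The exchange factor gene Dock8 had -0.43 ± 0.082 (SE, adjusted p = 0.0320, limma) and the GTPase activating gene Arhgap10 had -0.70 ± 0.14 (SE, adjusted p = 0.0359, limma). Of 64 genes for G proteins and their RGS and kinase regulators, 6 were lower (9.38%) and 1 was higher. Rgs14, an RGS protein that limits plasticity in CA2 and is also expressed in central amygdala, had 33.2, 41.6, 50.7 and 50.4 CPM in PS males, against 63.8, 65.2, 65.8 and 73.8 CPM in CTRL males. The fold change was -0.68 ± 0.14 (SE, adjusted p = 0.0366, limma). Gprin1, an effector of Gαo in neurite growth, had a fold change of -0.42 ± 0.091 (SE, adjusted p = 0.0388, limma).

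Genes on the list of protein kinase C, phospholipase C and CaM kinase signalling were lower with 1 exception where they were called. Of 75 genes for protein kinase C, phospholipase C, CaM kinases and calcineurin with their substrates, 4 were lower (5.33%) and 1 was higher. Camk2d was the only kinase gene among those called. Camk2d, the delta subunit gene of CaM kinase II, had 64.4, 80.6, 65.2 and 33.3 CPM in PS males, against 108, 126, 121 and 163 CPM in CTRL males, a fold change of -1.20 ± 0.26 (SE, adjusted p = 0.0385, limma). LM28 was the lowest library, and the fold change without LM25 and LM28 was -0.89. Camk2a, the main forebrain subunit, had 3637, 3598, 3922 and 5319 CPM in PS males, against 5177, 4176, 4308 and 5227 CPM in CTRL males. This gave a fold change of -0.27 ± 0.17 (SE, adjusted p = 0.321, limma), its groups overlapped, and the difference between the subunits was not tested. Gap43, a protein kinase C substrate of growth cones, had 111, 148, 143 and 85.4 CPM in PS males, against 179, 215, 201 and 207 CPM in CTRL males, a fold change of -0.81 ± 0.18 (SE, adjusted p = 0.0437, limma). The higher gene was Plcb4, a phospholipase C driven by Gq, with 6.41, 6.60, 6.53 and 6.22 CPM in PS males, against 4.64, 4.21, 4.38 and 4.33 CPM in CTRL males, a fold change of 0.45 ± 0.071 (SE, adjusted p = 0.0226, limma). The 4 PS libraries of Plcb4 were close to each other, and without LM25 and LM28 its fold change was 0.47. Among 47 calcium-binding proteins, the hippocalcin-like genes Hpcal1 (-0.93, adjusted p = 0.0476, limma) and Hpcal4 (-0.80, adjusted p = 0.0378, limma) were lower and Cpne9 was higher. In the MAP kinase list, 3 of 84 genes were lower, Map4k1 (-0.44), Map3k5 (-0.72) and the scaffold gene Mapk8ip2 (-0.23), and the phosphatase gene Dusp16 was higher (0.45). These are 3.57% lower and 1.19% higher, against 2.56% and 0.881% of all genes.

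Postsynaptic scaffolds anchor receptors in the membrane, and 4 of 44 scaffold genes were lower (9.09%) and 0 were higher (1 at an unadjusted p under 0.05), with a median of -0.16 (-0.19 without LM25 and LM28) and negative fold changes in 36 of them. Magi1, a membrane-associated guanylate kinase, had 66.1, 67.1, 69.3 and 60.6 CPM in PS males, against 89.6, 88.5, 83.3 and 94.2 CPM in CTRL males, a fold change of -0.49 ± 0.085 (SE, adjusted p = 0.0248, limma). Its relative Magi3 had 64.0 ± 11.4 CPM on average in PS males, against 90.3 ± 5.83 CPM in CTRL males, a fold change of -0.57 ± 0.13 (SE, adjusted p = 0.0432, limma). Cnih3, an auxiliary subunit of AMPA receptors, had 64.4, 81.4, 99.5 and 74.9 CPM in PS males, against 119.8, 125, 125 and 148 CPM in CTRL males. The fold change was -0.76 ± 0.17 (SE, adjusted p = 0.0411, limma), and Grip1, a PDZ protein that binds AMPA receptors, had -0.26 ± 0.060 (SE, adjusted p = 0.0437, limma). On the presynaptic side, 6 of 95 vesicle fusion and active zone genes were lower (6.32%) and 1 was higher, the syntaxin gene Stx3 (0.24), which was named after its values were seen. Syt10 had 7.42, 8.11, 8.18 and 6.20 CPM in PS males, against 14.2, 14.9, 12.03 and 13.3 CPM in CTRL males. Rab3c, a small GTPase of synaptic vesicles, had 1096, 1391, 1305 and 1057 CPM in PS males, against 1465, 1687, 1756 and 1429.9 CPM in CTRL males, a fold change of -0.45 ± 0.10 (SE, adjusted p = 0.0437, limma). Syngr3 (-0.25, adjusted p = 0.0437, limma), a synaptic vesicle membrane protein, and the synaptotagmin gene Syt5 (-0.49, adjusted p = 0.0456, limma) were also lower.

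Secreted signals held the largest single change and few others. Of 32 neuropeptide precursors, 2 were lower (6.25%), Trh and Vgf, and 0 were higher (1 at an unadjusted p under 0.05). The list had the lowest median of all lists outside the cell type markers, at -0.31, and it was -0.17 without LM25 and LM28, when synaptic adhesion proteins, postsynaptic scaffolds and clustered protocadherins had lower medians. Vgf, whose product is cut into several secreted peptides, had 111, 142, 139 and 129 CPM in PS males, against 163, 197, 174 and 173 CPM in CTRL males, a fold change of -0.50 ± 0.10 (SE, adjusted p = 0.0320, limma). Ptprn, a protein of dense-core granules, had -0.32 ± 0.079 (SE, adjusted p = 0.0474, limma). In the insulin-like growth factor system, Pappa2 was the 1 of 18 genes called. Of 51 Wnt pathway genes, Nkd2 and Lgr5 were higher and the receptor gene Fzd3 was lower (-0.42 ± 0.10, SE, adjusted p = 0.0441, limma), with 189.9 ± 22.5 CPM in PS males, against 243 ± 13.4 CPM in CTRL males. Of 59 genes of the BMP and TGF-beta pathway, 3 were lower, the receptor gene Acvr2a, Crim1 (-0.33, adjusted p = 0.0436, limma) and the BMP antagonist gene Nog (-0.44, adjusted p = 0.0471, limma). Notch pathway calls went both ways. The ligand gene Dner (-0.49, adjusted p = 0.0366, limma) and the feedback inhibitor gene Nrarp (-0.36, adjusted p = 0.0412, limma) were lower, while Lfng (0.45, adjusted p = 0.0441, limma), a glycosyltransferase that tunes Notch, and the target gene Hey2 (0.41, adjusted p = 0.0441, limma) were higher, of 29 genes tested. The FGF and Hedgehog lists had no called member, with 28 and 17 genes tested and 6 and 3 at an unadjusted p under 0.05.

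The unfolded protein response raises chaperones and degradation factors when proteins misfold in the endoplasmic reticulum, and the integrated stress response acts through the transcription factor ATF4. Of 35 genes of both responses, 3 were higher in PS males (8.57%) and 0 were lower (2 at an unadjusted p under 0.05), 28 had positive fold changes, and the median was 0.13 (0.10 without LM25 and LM28). Herpud1, a membrane protein of the degradation machinery, had 37.2, 35.5, 31.0 and 33.7 CPM in PS males, against 26.5, 26.8, 27.5 and 23.4 CPM in CTRL males, a fold change of 0.33 ± 0.072 (SE, adjusted p = 0.0412, limma). Sdf2l1, a cofactor of the chaperone BiP, had 5.75, 4.85, 4.30 and 4.65 CPM in PS males, against 3.49, 3.25, 3.24 and 2.91 CPM in CTRL males, a fold change of 0.48 ± 0.10 (SE, adjusted p = 0.0427, limma). Atf4 had 104, 96.0, 92.6 and 93.1 CPM in PS males, against 86.1, 77.9, 78.5 and 72.9 CPM in CTRL males, a fold change of 0.23 ± 0.055 (SE, adjusted p = 0.0446, limma). The 4 PS libraries were above the 4 CTRL libraries for each of these genes, by small margins. On the scaled CPM this held for 10.2% of all genes tested. Of all called genes, 97.4% did not overlap in either direction, so the separation is not particular to these genes. Hspa5, the gene of BiP itself, had 250.3, 272, 245 and 223 CPM in PS males, against 208, 240.5, 239 and 206 CPM in CTRL males, and its groups overlapped (0.086 ± 0.092, SE, adjusted p = 0.586, limma). With CPM not scaled further the median of the list was 0.19.

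Promoters of the response were read from RefSeq sequences (GRCm38.p6, 250 bases before to 50 bases after each start), which were found for 31 of the 35 genes. The endoplasmic reticulum stress element ERSE, CCAAT and CCACG with 9 bases between them on either strand, occurred in 7 of the 31 promoters (22.6%) and in 0.13% of all 27025 promoters. The related element ERSE-II, ATTGG and CCACG with 1 base between them on either strand, occurred in 2 of the 31 (6.45%), those of Herpud1 and Dnajb11, and in 0.037% of all promoters. Over the 21 genes tested whose promoter holds either element, the median fold change was 0.027, with 1 called higher (Herpud1) and 1 called lower (Adcy3). The 110 bases before the start are shown for the called gene Herpud1 (chr8:94386319-94386428, plus strand), with its ERSE-II in capitals, and for Hspa5 (chr2:34771980-34772089, plus strand), with its ERSE in capitals, since both carry an element of this response and only the Herpud1 groups were apart. A match describes the sequence and does not show a bound site.
Herpud1: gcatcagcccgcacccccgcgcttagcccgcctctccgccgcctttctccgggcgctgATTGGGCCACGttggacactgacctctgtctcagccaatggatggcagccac
Hspa5: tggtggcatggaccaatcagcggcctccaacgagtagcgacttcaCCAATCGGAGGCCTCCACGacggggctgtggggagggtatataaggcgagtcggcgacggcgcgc

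Other stress-linked programs had positive medians with few calls. Of 34 glucocorticoid-responsive genes, 29 had positive fold changes with a median of 0.32, against -7.7e-05 for the same genes in females. Limma called 1 of them, Gpd1, an enzyme of glycerol phosphate metabolism that is abundant in oligodendrocytes, with 198, 148, 165 and 221 CPM in PS males, against 123, 101, 92.2 and 102 CPM in CTRL males, a fold change of 0.74 ± 0.16 (SE, adjusted p = 0.0424, limma). Classical targets such as Tsc22d3 (0.75 ± 0.25, SE, adjusted p = 0.0852, limma), Sgk1 (0.53 ± 0.20, SE, adjusted p = 0.127, limma) and Fkbp5 (-0.043 ± 0.13, SE, adjusted p = 0.861, limma) were not called, and they were named after their values were seen. Of 40 immediate early genes, limma called 0, 11 were at an unadjusted p under 0.05, and the median was 0.22. This median was 0.15 without LM25 and LM28 and 0.12 without LM20, and the same genes had a median of 0.23 in females. The smallest p belonged to Nr4a3 (0.54 ± 0.15, SE, adjusted p = 0.0610, limma), with 268, 223, 193 and 253 CPM in PS males, against 162, 150.4, 158 and 142 CPM in CTRL males. The 23 clock genes had a median of 0.15 and no call (7 at an unadjusted p under 0.05), with Hlf at 0.74 (adjusted p = 0.0816, limma) and Per3 at 0.30 (adjusted p = 0.0897, limma). Of 66 antioxidant, glutathione and metallothionein genes, 3 were higher (4.55%) and none was lower (1 at an unadjusted p under 0.05). Prdx6, a peroxidase of phospholipids that astrocytes express, had 125, 119, 126 and 119.7 CPM in PS males, against 103, 103, 99.1 and 97.7 CPM in CTRL males, a fold change of 0.22 ± 0.046 (SE, adjusted p = 0.0366, limma). Catalase, Cat, had 0.34 ± 0.085 (SE, adjusted p = 0.0470, limma) and the selenoprotein gene Selenof had 0.25 ± 0.064 (SE, adjusted p = 0.0478, limma). Among 105 heat shock and chaperonin genes, Hspa1b (0.52 ± 0.10, SE, adjusted p = 0.0320, limma) and Dnajc21 (0.43 ± 0.10, SE, adjusted p = 0.0456, limma) were higher. Hspa1b shares most of its sequence with Hspa1a, which was not called (0.22 ± 0.12, SE, adjusted p = 0.240, limma). Only uniquely aligned reads were kept, so reads that align to both genes were dropped.

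Transcription factors had calls in both directions. Of the homeobox genes described here, Hopx and Lhx9 were higher and Tshz1 was lower. Hopx, a homeodomain protein without DNA binding, had 127, 77.6, 84.8 and 108 CPM in PS males, against 65.4, 49.3, 50.9 and 62.2 CPM in CTRL males, a fold change of 0.72 ± 0.17 (SE, adjusted p = 0.0437, limma). Lhx9, a LIM homeobox factor of several brain regions including medial amygdala and thalamus, had 56.7, 39.8, 32.9 and 37.5 CPM in PS males, against 27.7, 23.8, 18.4 and 25.5 CPM in CTRL males. This gave a fold change of 0.72 ± 0.17 (SE, adjusted p = 0.0441, limma). Tshz1, which marks intercalated cells, had -0.62 ± 0.15 (SE, adjusted p = 0.0470, limma) with overlapping groups. Of 47 nuclear receptor and coregulator genes, the estrogen receptor gene Esr1 and the retinoid receptor gene Rxrg were lower and Nr1h2, a sterol-sensing receptor, was higher (0.25 ± 0.065, SE, adjusted p = 0.0481, limma). Esr1 had 2.36, 3.66, 3.85 and 2.29 CPM in PS males, against 4.73, 5.82, 5.91 and 9.16 CPM in CTRL males, a fold change of -1.01 ± 0.22 (SE, adjusted p = 0.0424, limma). Rxrg had 2.01, 6.01, 6.58 and 2.27 CPM in PS males, against 5.65, 14.4, 14.1 and 11.1 CPM in CTRL males, a fold change of -1.45 ± 0.37 (SE, adjusted p = 0.0491, limma), and LM17 lay among the PS libraries. Of 152 Sox, Fox, Tbx, Klf and bHLH type factors, 3 were higher (1.97%), among them Nhlh2 and Irf3 (0.32, adjusted p = 0.0432, limma). In the same list 4 were lower (2.63%), among them Klf16 (-0.53, adjusted p = 0.0388, limma). Over all genes these shares were 0.881% and 2.56%, so the lower share is near that of all genes. Of 178 chromatin genes, 2 were lower (1.12%, a share below that of all genes), Chd3 and Chd5, whose products are remodelers of the NuRD complex. Chd3 had 995, 1054, 1136 and 1061 CPM in PS males, against 1377, 1407, 1438 and 1373 CPM in CTRL males, a fold change of -0.46 ± 0.072 (SE, adjusted p = 0.0226, limma), and Chd5 had 372, 361, 339.8 and 345 CPM in PS males, against 431, 419, 420.1 and 387 CPM in CTRL males, a fold change of -0.28 ± 0.056 (SE, adjusted p = 0.0322, limma). Smarcd2, a subunit of SWI/SNF remodelers, was the 1 higher gene (0.49 ± 0.12, SE, adjusted p = 0.0441, limma). Of 417 Zfp genes, 3 were higher (0.719%) and 2 lower (0.480%), both shares below those of all genes. Imprinted genes had a median of -0.13 (-0.039 without LM25 and LM28) with 1 call in 46, the lower potassium channel gene Kcnk9 (-0.57).

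Cytoskeletal genes had more lower than higher calls. Of 93 tubulin, kinesin, dynein and microtubule-associated genes, 6 were lower (6.45%) and 0 were higher (6 at an unadjusted p under 0.05). Map2, the microtubule-associated protein of dendrites, had 1942, 2310.4, 2310.4 and 1919.6 CPM in PS males, against 2478, 2794, 2775 and 2734 CPM in CTRL males, a fold change of -0.41 ± 0.093 (SE, adjusted p = 0.0437, limma). Map6, which stabilizes microtubules, had 87.8, 85.5, 86.6 and 89.1 CPM in PS males, against 99.7, 101, 97.4 and 100.2 CPM in CTRL males, a fold change of -0.25 ± 0.059 (SE, adjusted p = 0.0437, limma). The doublecortin-like kinase gene Dclk3 had -0.92 ± 0.22 (SE, adjusted p = 0.0441, limma) and Camsap1, a protein of microtubule minus ends, had -0.25 ± 0.058 (SE, adjusted p = 0.0441, limma). Of 111 actin, myosin and intermediate filament genes, 7 were lower (6.31%) and 2 higher (1.80%). Myh10, the nonmuscle myosin IIB heavy chain of neurons, had 268, 298, 293 and 271 CPM in PS males, against 339.6, 346, 347 and 358 CPM in CTRL males, a fold change of -0.36 ± 0.077 (SE, adjusted p = 0.0385, limma). The calponin gene Cnn3, which astrocytes and vascular cells express, was higher, with 64.1, 58.6, 62.7 and 67.1 CPM in PS males, against 49.8, 47.8, 44.6 and 42.1 CPM in CTRL males. The fold change was 0.39 ± 0.080 (SE, adjusted p = 0.0359, limma). Of the 11 keratins tested, Krt9, Krt77 (-1.24 ± 0.28, SE, adjusted p = 0.0437, limma) and Krt1 (-0.44 ± 0.11, SE, adjusted p = 0.0494, limma) were lower, and Krt77 and Krt1 had overlapping groups.

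Housekeeping programs had few calls. The 89 oxidative phosphorylation genes had a median of 0.094, 81 of them had positive fold changes, and none was called, with 13 at an unadjusted p under 0.05. Ndufaf4 had the smallest p (0.23 ± 0.069, SE, adjusted p = 0.0746, limma). In females their median was 0.080. Cytosolic ribosomal proteins had a median of 0.0088 over 84 genes and mitochondrial ribosomal proteins 0.025 over 77, with no call in either (5 and 2 at an unadjusted p under 0.05). Translation factors, the lysosome and autophagy genes and cholesterol synthesis also had no call, with 105, 50 and 29 genes tested and 13, 15 and 5 at an unadjusted p under 0.05. Of 265 ubiquitin ligase genes, 5 were lower (1.89%), led by Fbxo10 (-0.41, adjusted p = 0.0320, limma), and 2 higher (0.755%), both shares below those of all genes. Of 260 solute carriers, 9 were lower (3.46%, against 2.56% of all genes) and 0 were higher (31 at an unadjusted p under 0.05). After Slc7a14 the smallest adjusted p was that of Slc25a34, of the mitochondrial carrier family, with 4.13, 5.76, 5.601 and 4.22 CPM in PS males, against 7.82, 8.66, 8.86 and 9.48 CPM in CTRL males, a fold change of -0.83 ± 0.16 (SE, adjusted p = 0.0320, limma). The next were Slc35f4 (-0.46, adjusted p = 0.0366, limma) and the sodium-proton exchanger gene Slc9a7 (-0.37, adjusted p = 0.0377, limma).

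Matrix and immune lists held few called genes. Of 37 proteoglycan and perineuronal net genes, the heparan sulphate proteoglycan gene Sdc3 and the link protein gene Hapln3 were lower and lumican, Lum, was higher. Sdc3 had 192, 192, 188 and 186 CPM in PS males, against 215, 228, 221 and 221 CPM in CTRL males, a fold change of -0.28 ± 0.049 (SE, adjusted p = 0.0248, limma). Its 4 PS libraries were nearly equal. Lum had 8.89, 6.51, 6.38 and 8.08 CPM in PS males, against 4.50, 4.14, 3.98 and 3.57 CPM in CTRL males, a fold change of 0.74 ± 0.18 (SE, adjusted p = 0.0441, limma). Hapln3 had 1.35, 1.36, 1.5004 and 1.52 CPM in PS males, against 2.30, 2.52, 2.48 and 2.24 CPM in CTRL males, a fold change of -0.62 ± 0.14 (SE, adjusted p = 0.0436, limma). Of 35 collagens, Col23a1 was lower (-0.71 ± 0.16, SE, adjusted p = 0.0437, limma), and of 54 basement membrane and fibre genes, Thbs1 (-0.46 ± 0.10, SE, adjusted p = 0.0385, limma), an astrocyte-secreted inducer of synapses, and Spon1 (-0.46 ± 0.10, SE, adjusted p = 0.0436, limma) were lower. The MHC, complement and interferon lists had no called member, with 21, 22 and 29 genes tested and medians of 0.051, 0.077 and 0.12. Without LM25 and LM28 these medians were -0.0013, 0.051 and 0.035. At an unadjusted p under 0.05 there were 3, 8 and 3 genes. Of 78 cytokine, chemokine and NF-kappaB genes, 1 was lower, Il34, a neuronal ligand of the microglial receptor Csf1r, with 20.5, 27.3, 27.3 and 22.7 CPM in PS males, against 29.4, 33.5, 33.5 and 37.1 CPM in CTRL males, a fold change of -0.50 ± 0.12 (SE, adjusted p = 0.0449, limma).

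Markers of several cell types differed between the groups, and their part in the results above was not tested. Of 20 central amygdala and intercalated markers, 17 had a mean above 0.5 CPM in PS or CTRL males, and Isl1 was the 1 gene at 0 in all 8 libraries. Summed over these 20 genes, the libraries had 983 to 1839 CPM in PS males and 1554 to 1855 CPM in CTRL males, and Ptk2b alone made up 73.3% of the summed CPM. By gene, the median fold change of the 17 tested was -0.52 (-0.33 without LM25 and LM28), and Rgs14 and Tshz1 were called lower. Hypothalamic and medial amygdala markers had 916 to 1351 CPM in PS males and 1108 to 1663 CPM in CTRL males in sum over 23 genes, 5 of them (Sim1, Otp, Oxt, Hcrt and Pmch) at 0 throughout. Their median was -0.66, against -0.23 without LM25 and LM28, with Ecel1 and Esr1 lower and Lhx9 higher of 16 tested. Interneuron markers had a median of -0.29 (-0.22 without LM25 and LM28), with 19 of 25 negative and 6 positive, up to 1.11 for Pvalb. Their sums did not overlap between groups, at 2509.5 to 3018 CPM in PS males and 3066 to 3686 CPM in CTRL males. Cnr1 alone made up 27.8% of the summed CPM. By gene, 3 of 25 were lower without overlap, where this held for 12.1% of all genes tested, and 1 of 25 was called. That gene was Nos1, the neuronal nitric oxide synthase of a class of interneurons and of medial amygdala neurons, with 103, 201, 218 and 161 CPM in PS males, against 257, 397, 364 and 362 CPM in CTRL males, a fold change of -1.11 ± 0.23 (SE, adjusted p = 0.0355, limma). LM25 was the lowest library for it, and the fold change was -0.77 without LM25 and LM28. Striatal markers had negative fold changes in all 13 genes tested, with a median of -0.49 (-0.22 without LM25 and LM28), no call (7 at an unadjusted p under 0.05) and sums of 253 to 487 CPM in PS males and 361 to 628 CPM in CTRL males. Basolateral and other pallial markers had a median of -0.17 and sums of 8962 to 11714 CPM in PS males and 9243 to 12028 CPM in CTRL males. They moved both ways, with 13 of 18 negative and 5 positive, up to 1.15 for Neurod6. At an unadjusted p under 0.05 (limma), 4 were higher and 5 lower. Lmo3, a LIM-only cofactor of basolateral neurons, was called lower (-0.93 ± 0.22, SE, adjusted p = 0.0437, limma), at 81.7, 128, 112 and 85.7 CPM in PS males, against 156, 185, 183 and 213 CPM in CTRL males.

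Hippocampal, oligodendrocyte and vascular markers had higher mean sums in PS males. Hippocampal markers had a median of 0.77 with 17 of 19 positive and no call (10 at an unadjusted p under 0.05), and a median of 0.32 without LM25 and LM28. The mean sum of PS males was 1.57 times that of CTRL males with all libraries and 1.03 times without these 2. Thalamic and habenular markers had a median of 0.42 and sums of 245 to 443 CPM in PS males and 279 to 358 CPM in CTRL males, which overlapped. Without LM25 and LM28 the median was 0.25 and the mean sum of PS males was 0.940 times that of CTRL males. Oligodendrocyte markers had positive fold changes in all 18 genes with a median of 0.70 and no call (3 at an unadjusted p under 0.05). Their sums were 594 to 1222 CPM in PS males and 322 to 625 CPM in CTRL males, and the mean sum was 1.80 times that of CTRL males (1.52 times without LM25 and LM28). Endothelial markers did not overlap, at 274 to 313 CPM in PS males and 221 to 249 CPM in CTRL males, and 2 of 16 were called higher, the tight junction gene Ocln (0.60 ± 0.14, SE, adjusted p = 0.0436, limma) and Ly6c1 (0.33 ± 0.081, SE, adjusted p = 0.0456, limma). Pericyte and smooth muscle markers summed to 234 to 250.3 CPM in PS males and 204 to 225 CPM in CTRL males, and the groups overlapped once the sums were scaled by the TMM factors (223 to 249 CPM in PS males, against 207 to 226 CPM in CTRL males). By gene their median was -0.024 (0.044 without LM25 and LM28), 8 of 14 were negative with no call (2 at an unadjusted p under 0.05), and Rgs5 made up 58.0% of the sum. Microglial markers had negative fold changes in all 16 genes, with a median of -0.21 (-0.18 without LM25 and LM28) and sums of 252 to 312 CPM in PS males and 302 to 341 CPM in CTRL males. Limma called 2 of them lower. The integrin gene Itgam had 8.45, 8.66, 10.6 and 11.3 CPM in PS males, against 11.9, 12.8, 13.2 and 12.9 CPM in CTRL males (-0.43 ± 0.10, SE, adjusted p = 0.0432, limma). Cx3cr1, the receptor of a neuronal chemokine, had 21.2, 23.6, 29.0 and 26.9 CPM in PS males, against 28.4, 32.4, 32.1 and 33.7 CPM in CTRL males (-0.39 ± 0.091, SE, adjusted p = 0.0437, limma). Astrocyte markers had a median of 0.17 with sums of 5631 to 6029 CPM in PS males and 5418 to 5869.5 CPM in CTRL males. Of 17 choroid plexus and ependymal markers, 7 were at 0 in all 8 libraries, the transthyretin gene Ttr and Folr1 among them.

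**Figure D4:**
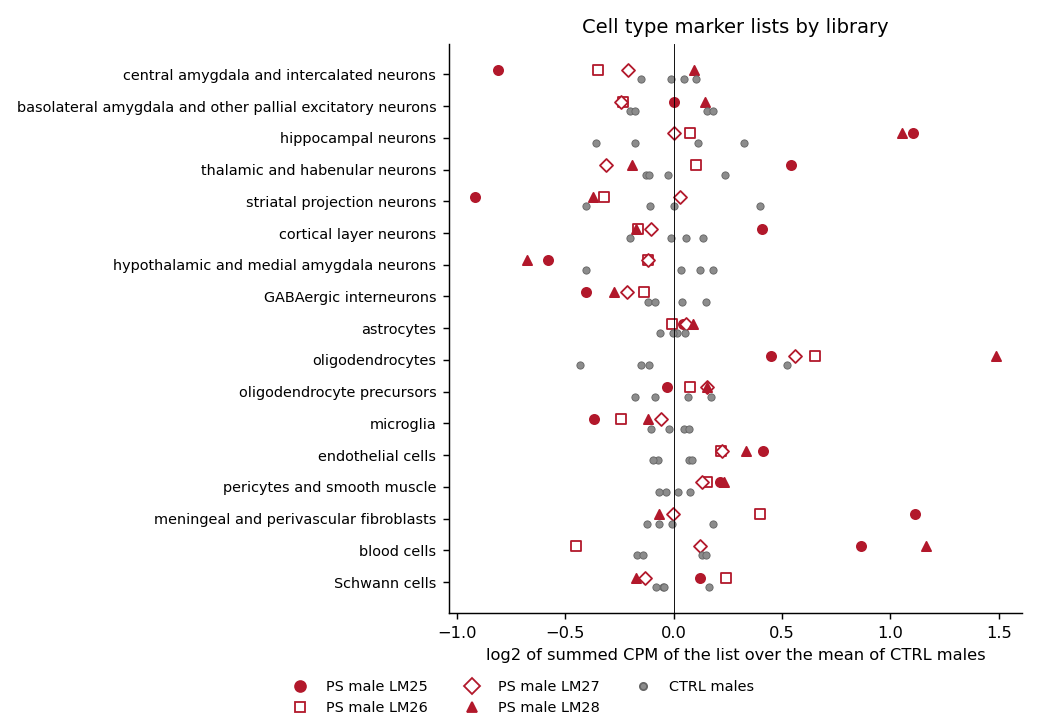
Log2 of the summed CPM of each marker list over the mean of CTRL males (horizontal axis), with the 4 PS male libraries in red, filled for LM25 and LM28, and the 4 CTRL male libraries in grey, for lists above 20 CPM. LM25 and LM28 lie far right for hippocampal markers, while the PS libraries lie right of all CTRL libraries for endothelial markers and left of them for GABAergic interneuron markers.

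The PS effect in males was tested against that in females for the genes named above. Over all genes tested, the difference of the effects was called for 4.11%, and it was called for 255 of the 492 genes that were called in males. The 492 genes were chosen for their effect in males, which enters the difference, so this share describes them and tests nothing. Their fold changes in females had the opposite sign for 288 of the 366 lower genes, with a median of 0.11, and for 90 of the 126 higher genes, with a median of -0.064. Lnp1 had 1.76 ± 0.283 CPM in PS females and 1.06 ± 0.242 CPM in CTRL females (SD, n = 4 each), a log2 fold change of 0.55, and its effect in males minus that in females was -1.98 ± 0.24 (SE, adjusted p = 0.0135, limma). Pak6 had 115 ± 7.32 CPM in PS females and 97.4 ± 6.47 CPM in CTRL females, with a difference of -0.72 ± 0.10 (SE, adjusted p = 0.0237, limma). Nrxn2 had 345 ± 27.0 CPM in PS females and 313 ± 16.4 CPM in CTRL females, with a difference of -0.65 ± 0.11 (SE, adjusted p = 0.0353, limma). Tenm2 had 296 ± 54.8 CPM in PS females and 385 ± 19.99 CPM in CTRL females, with a difference of 1.00 ± 0.19 (SE, adjusted p = 0.0376, limma). For Vgf the difference was -0.79 ± 0.14 (SE, adjusted p = 0.0353, limma) and for Sdc3 -0.44 ± 0.070 (SE, adjusted p = 0.0314, limma). It was not called for Trh (-3.42 ± 1.00, SE, adjusted p = 0.0651, limma), Bves (1.501 ± 0.44, SE, adjusted p = 0.0640, limma) or Nkd2 (0.91 ± 0.29, SE, adjusted p = 0.0811, limma). For the 3 called genes of the unfolded protein and integrated stress responses the differences were 0.23 ± 0.10 (SE, adjusted p = 0.188, limma) for Herpud1, 0.28 ± 0.15 (SE, adjusted p = 0.260, limma) for Sdf2l1 and 0.023 ± 0.078 (SE, adjusted p = 0.880, limma) for Atf4. Atf4 had a fold change of 0.21 in females, close to the 0.23 in males.

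**Figure D5:**
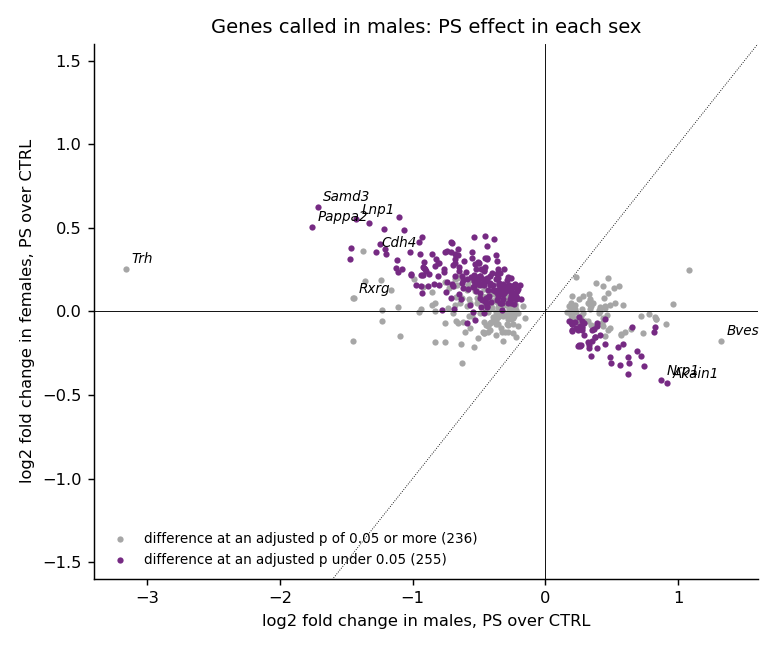
Log2 fold change of PS over CTRL in females (vertical axis) against that in males (horizontal axis) for the genes called in males, each point a gene, purple where limma called the difference between the sexes; the dotted line marks equal effects. The median in females is 0.11 for the genes lower in males and -0.064 for those higher, and the labelled genes Samd3, Pappa2 and Lnp1 lie above 0 in females and below 0 in males.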

How the data were processed

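Amygdala was dissected under a microscope from frozen brains of PN28 mice, 4 per sex and treatment, and poly(A) RNA was made into directional libraries. The authors mapped reads to mm10 with STAR, counted them with featureCounts and analysed them with edgeR after removing unwanted variation by RUVs. Versions and the strand setting are not given in the sources used here. The deposited table holds CPM columns, which the authors computed from corrected values, and columns named raw, treated as a score: the deposited values were scaled, stripped of 2 factors and rounded, and within-group variation spans 10 of 12 directions over 11026 genes above 5 CPM. No count test was therefore run, which departs from a count model, and the correction lowers the spread between libraries, so the fits carry 2 fewer residual degrees of freedom, 10 in all. The authors' own fold changes, p-values and FDR, also in the table, were not used. Every sample column was matched to a sample (0 unmatched), 279 genes at 0 throughout were kept in the table, and no 2 libraries were identical.

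Log2(TMM-scaled CPM + 0.5) of all 16 libraries was fitted with limma 3.58.1 (R 4.3.3) with group means and the 2 recovered directions, with a mean-variance trend, and adjusted by Benjamini-Hochberg over genes with a mean above 0.5 CPM in PS or CTRL males. The fit was tested on simulated data. PS minus CTRL in males was set against PS minus CTRL in females in the same fit. Tables were handled with pandas 2.3.3 and numpy 2.4.6 and drawn with matplotlib 3.10.9. Mice came from different litters, and p-values measure the spread between these libraries.

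Named genes were, in each direction, the 12 DEGs of largest fold change whose groups did not overlap and whose mean was above 1 CPM in the higher group, then the 10 smallest adjusted p (ties by unadjusted p), up to 4 called members of each list (or up to 2 with the smallest p), and relatives of the largest DEGs. Adcy3, Adgrb3, Camk2a, Clstn2, Elfn1, Fkbp5, Frmd5, Hspa1a, Hspa5, Ifrd1, Nrxn3, Pde2a, Prkar1b, Ptprf, Sgk1, Stx3, Tenm2 and Tsc22d3 were chosen after their values were seen. Comparisons, members and lists were chosen with earlier results of these data known. Alternatives were other scaling, pseudocounts of 0.1 and 1 CPM, other filters, no trend, no factors, males alone, and leaving out libraries. Gene positions and exon overlaps are from GRCm38 annotation. Some genes are not reported here.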

Additional observations from a re-analysis of the deposited data

Results flagged for a closer look

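Within the 2 groups of males, 13 of 340 sets of 4 values, over 170 named genes, had 1 library far from the other 3 by Dixon's test (3.82%), where chance flags about 1 in 20 groups. The PS male library LM25 stood apart at 104 CPM for Camsap1 and 2.97 CPM for Ccdc162. The PS male library LM28 stood apart at 66.7 CPM for Cdh13 and 31.2 CPM for Icosl. The CTRL male library LM17 stood apart at 282 CPM for Mapk8ip2, 101 CPM for Pak6 and 108 CPM for Pcdh8. The CTRL male library LM18 stood apart at 28.0 CPM for Kcnk9. The CTRL male library LM20 stood apart at 38.7 CPM for Cntnap5a, 27.2 CPM for Krt9, 35.6 CPM for Map3k5, 21.4 CPM for Per3 and 166 CPM for Spon1.

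The PS effect in males differed from that in females by limma's test of the difference (adjusted p under 0.05; 4.11% of all genes) for 84 of 170 named genes, most of which were named for their change in males, so that this count describes them. The log2 fold change in males minus that in females was negative for 68 of them and positive for 16. The largest negative differences were those of Samd3 (-2.34), Pappa2 (-2.27), Lnp1 (-1.98), Krt9 (-1.86), Plcz1 (-1.84), Sema3a (-1.79), Filip1 (-1.71), Trpa1 (-1.65), Cdh4 (-1.63), Camk2d (-1.54), Hpcal1 (-1.38), Ano2 (-1.33), Esr1 (-1.23), Dclk3 (-1.19), Prkg2 (-1.17), Cntnap5a (-1.14), Tmem132e (-1.13), Arhgap10 (-1.11), Pdzrn4 (-1.10), Gap43 (-1.10), Syt10 (-1.03), Cnih3 (-1.02) and Lzts1 (-1.01). Smaller negative differences were found for Rgs14 (-0.99), Hpcal4 (-0.96), Col23a1 (-0.87), Negr1 (-0.87), Il34 (-0.80), Vgf (-0.79), Acvr2a (-0.79), Tmem132d (-0.78), Hapln3 (-0.76), Akap5 (-0.76), Cdh13 (-0.75), Klf16 (-0.72), Pak6 (-0.72), Pcdh8 (-0.71), Syt5 (-0.70), Tiam1 (-0.70), Fam19a2 (-0.66), Nrxn2 (-0.65), Dner (-0.65), Krt1 (-0.64), Map4k1 (-0.63) and Magi1 (-0.60). The smallest negative differences were those of Ntn3 (-0.55), Pnmal1 (-0.54), Slc7a14 (-0.52), Itgam (-0.52), Gprin1 (-0.52), Prkar1b (-0.51), Adgrl3 (-0.51), Pde2a (-0.49), Rhof (-0.48), Lingo2 (-0.48), Myh10 (-0.47), Fbxo10 (-0.46), Ptprn (-0.45), Chd3 (-0.45), Nrarp (-0.44), Sdc3 (-0.44), Farp1 (-0.43), Syngr3 (-0.39), Lrrtm4 (-0.39), Fam19a5 (-0.35), Cdh2 (-0.34), Chd5 (-0.34) and Map6 (-0.33). Positive differences were found for Akain1 (1.35), Nrp1 (1.29), Lum (1.07), Tenm2 (1.00), Lhx9 (0.99), Amigo2 (0.94), Nhlh2 (0.92), Cdh19 (0.89), Clstn2 (0.88), Frmd5 (0.76), Cdh11 (0.76), Dusp16 (0.64), Pcdhb3 (0.53), Plcb4 (0.50), Cnn3 (0.46) and Ndufaf4 (0.40).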

How the results depend on the processing

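The counts of calls depended on several choices, while all 492 genes called kept their direction in every alternative in which they were tested. The alternatives share libraries with the fit that chose these genes, so the kept directions describe them and test nothing. With CPM not scaled further there were 54 higher DEGs, against 23. Without a filter on low values there were 6 higher and 49 lower DEGs, 152 called genes, 35 lists with a called gene (61 of 85 otherwise) and 143 genes whose PS effect differed between the sexes (591 otherwise). Without a mean trend these counts were 5, 43, 108, 27 and 10. Leaving the removed factors out of the model, which counts the spread as if nothing had been removed, gave 102 higher and 199 lower DEGs, 1687 called genes and 1720 sex differences. A fit of the 8 male libraries alone, which also carried 0 factors, gave 79 and 186 DEGs and 1901 called genes. Without LM25 and LM28, again with 0 factors, limma gave 0 DEGs in each direction, 0 called genes (2625 at an unadjusted p under 0.05) and 0 lists with a call, and 730 sex differences. With 1 library left out and 1 factor kept, the counts ran from 2 to 91 for higher DEGs, 21 to 230 for lower DEGs, 49 to 1018 for called genes, 13 to 75 for lists with a call and 164 to 1113 for sex differences. Other scaling, pseudocounts and the filter at 5 CPM left these counts within 1.5 times. Of the 85 list medians, 38 changed sign in at least 1 alternative. The cause was not tested for any of these changes. No paired analysis was possible because each library number belongs to 1 sample only, so the groups share no replicate numbers. Depth after the correction is unknown as reads, and genes under 1 CPM rest on the pseudocount.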

Other observations

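A few genes and gene families outside the lists were noticed after their values were seen and are given as values. Of the 5 genes tested of the Pnma family, the paraneoplastic Ma antigens, whose sequences derive from Gag proteins of retroelements, 4 were called lower in PS males by limma (all genes: 2.56%). Pnma1 had 3.22, 4.45, 4.18 and 2.24 CPM in PS males, against 4.90, 5.58, 5.65 and 6.16 CPM in CTRL males, with a log2 change of -0.68 ± 0.17 (SE, adjusted p = 0.0470, limma). The groups did not overlap, and the fold change was -0.40 without LM25 and LM28. Pnma2 (-0.46, adjusted p = 0.0437, limma), Pnmal1 (-0.47, adjusted p = 0.0366, limma) and Pnmal2 (-0.41, adjusted p = 0.0474, limma) were also lower, and Pnma3 had -0.32 (adjusted p = 0.121, limma). Pnma2 and Pnmal2 overlapped between the groups on the deposited CPM and not on the scaled CPM.

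Of 5 Tmem132 genes, which encode single-pass membrane proteins of neurons, 2 were called lower. Tmem132e had 9.63, 11.6, 9.48 and 6.75 CPM in PS males, against 15.4, 18.7, 18.3 and 19.1 CPM in CTRL males, with a log2 change of -0.97 ± 0.16 (SE, adjusted p = 0.0248, limma). The fold change was -0.81 without LM25 and LM28. Tmem132d had -0.59 (adjusted p = 0.0378, limma), while Tmem132a, Tmem132b and Tmem132c had -0.28, -0.20 and -0.15 and were not called. Of 3 Fam19a genes, which encode small secreted proteins of brain, Fam19a2 (-0.47, adjusted p = 0.0437, limma) and Fam19a5 (-0.26, adjusted p = 0.0364, limma) were lower and Fam19a1 had -0.40 (adjusted p = 0.290, limma). The transcriptional cofactor gene Dach1 had 10.1, 11.998, 8.45 and 5.76 CPM in PS males, against 15.5, 21.2, 23.5 and 22.9 CPM in CTRL males, with a log2 change of -1.23 ± 0.29 (SE, adjusted p = 0.0441, limma). LM28 held its lowest value, and the fold change was -1.06 without LM25 and LM28. Filip1, which controls filamin turnover in migrating neurons, had 6.44, 8.83, 10.2 and 7.96 CPM in PS males, against 17.1, 18.8, 17.6 and 23.2 CPM in CTRL males, with a log2 change of -1.22 ± 0.22 (SE, adjusted p = 0.0295, limma), and -1.03 without those libraries.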
